A study of Mus musculus with 31 samples.

Results

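Messenger RNA of 6 genes of zinc handling was followed in mouse Ly6C-high monocytes, the inflammatory monocytes that leave the blood for inflamed tissue and tumors. The genes were the metallothioneins Mt1 and Mt2, the zinc-sensing transcription factor Mtf1, the zinc exporter Slc30a1 and the zinc importers Slc39a14 and Slc39a8. They were taken by symbol from a count table of 24411 entries, and all 6 were in it. The series compared Ly6C-high monocytes of C57BL/6J mice in 3 groups of 3 RNA-seq libraries: healthy blood from mice without a tumor, LLC blood from mice that carried a subcutaneous tumor of Lewis lung carcinoma (LLC, a cancer line from mouse lung that grows in C57BL mice), and LLC tumor, cells sorted from such tumors. In every group the cells had been sorted as CD11b+ Ly6G- Ly6C-hi MHC-II- before RNA was extracted. The labels give no agent, allele, age or sex for these libraries and do not say that those of a group came from separate mice, so the p-values measure only the spread between these libraries, which may be technical. Nor do the labels say whether LLC blood and LLC tumor libraries came from the same mice. Another 22 of the 31 samples of the series, which hold chromatin assays, were not analysed here.

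Zinc is held at a very low free concentration in the cytosol. Metallothioneins are small, cysteine-rich proteins that bind and buffer zinc and also copper, and phagocytes raise them during inflammation and under oxidative stress. Zinc that binds the zinc fingers of MTF1 sends this factor to metal response elements, short motifs in the promoters of Mt1, Mt2 and Slc30a1. The SLC30 family (ZnT proteins) carries zinc out of the cytosol, across the plasma membrane or into organelles, and the SLC39 family (ZIP proteins) carries it in. Slc39a14 (ZIP14) and Slc39a8 (ZIP8) also carry iron, manganese and cadmium, and both are known to respond to inflammatory signals.

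Libraries held 10457492 to 20706412 estimated counts. Levels are given as CPM, each count scaled to the total over all entries of its library, which are not corrected for gene length, so they are compared between libraries and not between genes. All 8 monocyte markers listed, among them Itgam, Csf1r and Ly6c2, were detected in every group, and their summed level was 33800 to 37790 CPM in healthy blood, 24770 to 28100 CPM in LLC blood and 15150 to 19610 CPM in LLC tumor. Against LLC blood, 2 of the 8 were called higher and 5 lower in LLC tumor. Over all tested genes, 29.6% were called higher and 31.7% lower in that comparison. Itgam, which encodes CD11b of the gate, was at 893.2 to 949.4 CPM in healthy blood, 1337 to 1490 CPM in LLC blood and 3193 to 3720 CPM in LLC tumor, and Cd14 was at 40.8 to 52.2 CPM over the 6 blood libraries and 1378 to 2010 CPM in LLC tumor. Ly6c2, which encodes a Ly6C protein of the gate, was at 1571 to 1728 CPM in healthy blood, 1099 to 1237 CPM in LLC blood and 272.4 to 472.5 CPM in LLC tumor. LLC blood 1 stood apart from the other blood libraries, with 408.9 CPM of 6 summed fibroblast markers against 1.38 and 1.93 CPM in LLC blood 2 and 3. In LLC tumor 1, 2 and 3 the same sum was 936.1, 3467 and 3921 CPM, and none of the 6 markers was at 0. Of the 6, 4 were called higher than in LLC blood, against 29.6% of all tested genes. In bulk RNA, a different number of cells of a type and a different amount of RNA per cell cannot be told apart.

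Mt1, Mt2 and Slc39a14 were far higher in LLC tumor than in either blood group, while Slc30a1 was lower there. In LLC blood the calls were smaller: Mt1, Slc39a14 and Mtf1 were higher than in healthy blood, by 2.67, 1.88 and 1.31 times in the fit. A gene was called where the Benjamini-Hochberg adjusted p of edgeR's quasi-likelihood test was under 0.05, and every adjusted p below comes from that test over all 12337 genes tested unless another tool is named. Against healthy blood, LLC blood had 3 of the 6 genes called higher and none lower, in a comparison where 23.6% of all tested genes were called, 14.0% higher and 9.61% lower. Against LLC blood, LLC tumor had 3 called higher and 2 lower, where 61.3% of all tested genes were called, 29.6% higher and 31.7% lower. Against healthy blood, LLC tumor had 3 called higher and 1 lower, where 66.5% of all tested genes were called, 33.5% higher and 33.0% lower. The median log2 fold change of the 6 genes was 0.49, 1.95 and 2.87 in these comparisons, against -0.0092, -0.034 and -0.0025 over all tested genes. The libraries of the groups did not overlap for 5, 5 and 4 of the 6 genes, against 51.4%, 68.3% and 70.6% of all tested genes. Mt2 is counted in these values, although it passed the filter on low counts only through its tumor libraries, where it was high, so its tumor calls are no support for a difference. Without Mt2, the middle of the other 5 log2 fold changes was that of Slc39a8: 0.59, -0.26 and 0.34 in the 3 comparisons. The medians of 1.95 and 2.87 for LLC tumor therefore rest on Mt2 and show no shift of the 6 genes as a set. The 3 comparisons share their libraries in pairs and are therefore not independent of each other. The 6 genes and the lists below were chosen with earlier results of these data known. Their counts and medians beside those of all tested genes are therefore a description and not a test.

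**Figure D1:**
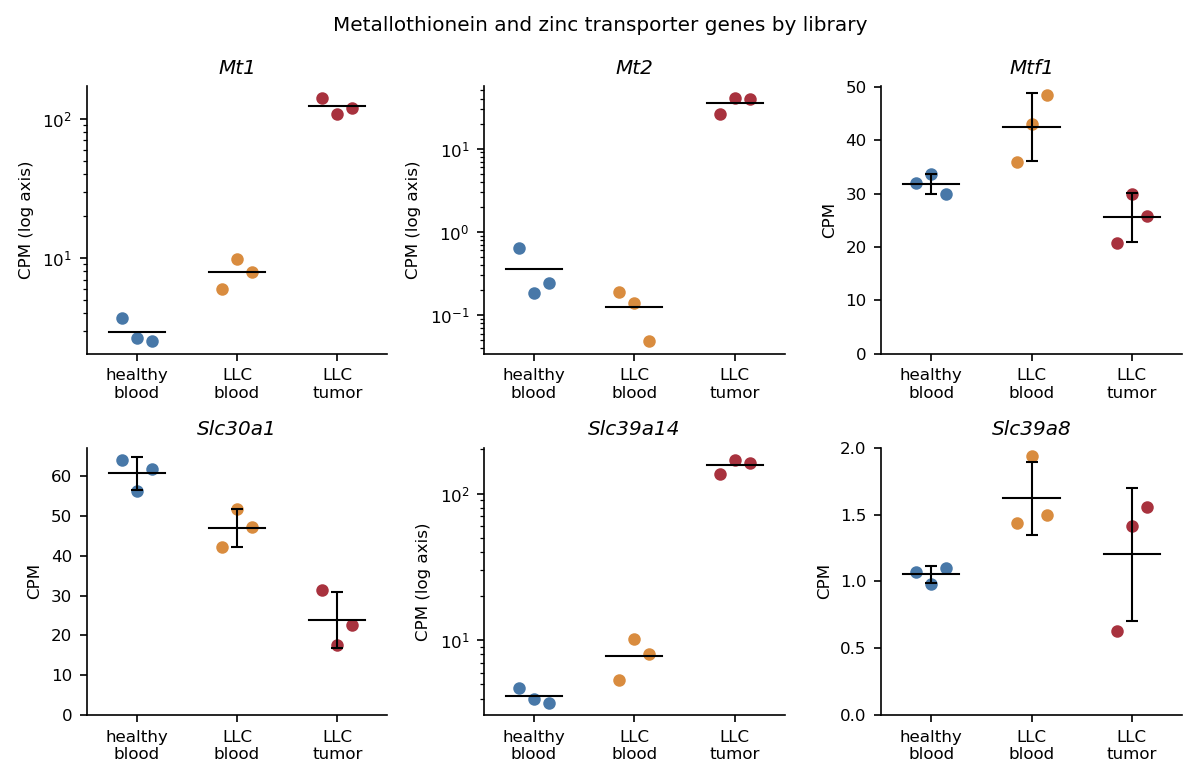
Each point is the CPM of 1 gene in 1 library, horizontal lines are the means of 3 libraries, and vertical bars, drawn only on the linear axes, are the SD. Mt1, Mt2 and Slc39a14, on log axes, lie at 26.0 CPM or more in every LLC tumor library and below 11 CPM in every blood library, and Slc30a1 steps down from healthy blood to LLC blood to LLC tumor.

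Mt1 (ENSMUSG00000031765, chr8:94178883-94180327 of GRCm38) encodes metallothionein-1, a main zinc-binding protein of the cytosol. Its level was 3.72, 2.64 and 2.51 CPM in healthy blood 1, 2 and 3, 6.02, 9.89 and 7.92 CPM in LLC blood, and 141.1, 109.0 and 120.5 CPM in LLC tumor. The 3 groups did not overlap, and they stood in the order healthy blood, LLC blood, LLC tumor. The means were 2.96 ± 0.660, 7.95 ± 1.93 and 123.5 ± 16.3 CPM (SD, n = 3 libraries each). Mt1 rose by 1.42 ± 0.26 on the log2 scale (SE) from healthy blood to LLC blood, with an adjusted p of 0.00500. From LLC blood to LLC tumor it rose by 4.17 ± 0.24 on the log2 scale, a 17.97-fold change with an adjusted p of 8.99e-07. Neighbouring groups in this order therefore differed beyond the spread of their libraries. LLC blood 1, with its fibroblast signal, had the lowest Mt1 level of the LLC blood libraries, and without it the rise in blood was 1.57 on the log2 scale, with an adjusted p of 0.00494.

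Mt2 (ENSMUSG00000031762, chr8:94172618-94173567 of GRCm38) encodes metallothionein-2 and lies 5315 bases from Mt1, with no gene annotated between them. It was counted 9, 3 and 4 times in the healthy blood libraries, 2, 2 and 1 times in LLC blood, and 288, 456 and 457 times in LLC tumor. As levels, these counts were 0.643, 0.184 and 0.245 CPM, then 0.191, 0.138 and 0.0483 CPM, then 26.0, 40.4 and 39.5 CPM. Every LLC tumor library was far above every blood library, and the blood groups overlapped. Mt2 passed the filter on low counts only through its tumor libraries, so its place among the tested genes rests on the group in which it was high. Pooled over libraries, the CPM ratio of LLC tumor to LLC blood was 323 (95% exact interval for counting error 138 to 996.5, from 1201 and 5 counts), and that of LLC tumor to healthy blood was 103.1 (63.2 to 180.9, from 1201 and 16 counts). No p is given for these differences, since the tumor level itself brought Mt2 into the test. In the blood comparison the log2 fold change of Mt2 was -1.59 ± 0.62 (SE) with an adjusted p of 0.0959, which did not pass. The pooled ratio of LLC blood to healthy blood was 0.319, with a counting interval of 0.0914 to 0.912 from 5 and 16 counts, so the value of Mt2 in blood, opposite in sign to that of Mt1, rests on few counts. It was -0.93 without healthy blood 1 and -1.96 without healthy blood 2, the ends of the range when a library was left out. Without healthy blood 1, which held 9 of the 16 counts, the log2 fold change of Mt2 from healthy blood to LLC tumor was 7.44, against 6.79 with it.

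Within a library, the share of Mt2 in the summed Mt1 and Mt2 counts does not depend on depth or scaling. It was 14.8%, 6.52% and 8.89% in healthy blood 1, 2 and 3, 3.08%, 1.38% and 0.606% in the LLC blood libraries, and 15.6%, 27.05% and 24.7% in those of LLC tumor. The 3 groups did not overlap, with LLC blood lowest and LLC tumor highest. Pooled, Mt2 made up 10.5% of 152 counts in healthy blood (95% exact interval 6.14% to 16.5%), 1.33% of 375 counts in LLC blood (0.434% to 3.08%) and 22.3% of 5388 counts in LLC tumor (21.2% to 23.4%). The pooled intervals did not overlap between any of the groups. Those of single libraries did overlap between the blood groups, as in healthy blood 2 (1.37% to 17.9%) and LLC blood 1 (0.375% to 10.7%). In LLC tumor the libraries differed beyond counting error, with 13.9% to 17.3% in LLC tumor 1 and 24.9% to 29.2% in LLC tumor 2. The pooled intervals cover counting error only, and an exact permutation test of 3 libraries against 3 cannot give a two-sided p under 0.10, so no p is given. The share in healthy blood 1 was close to that in LLC tumor 1, and at 9 counts of Mt2 its own interval reached well past that value.

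**Figure D2:**
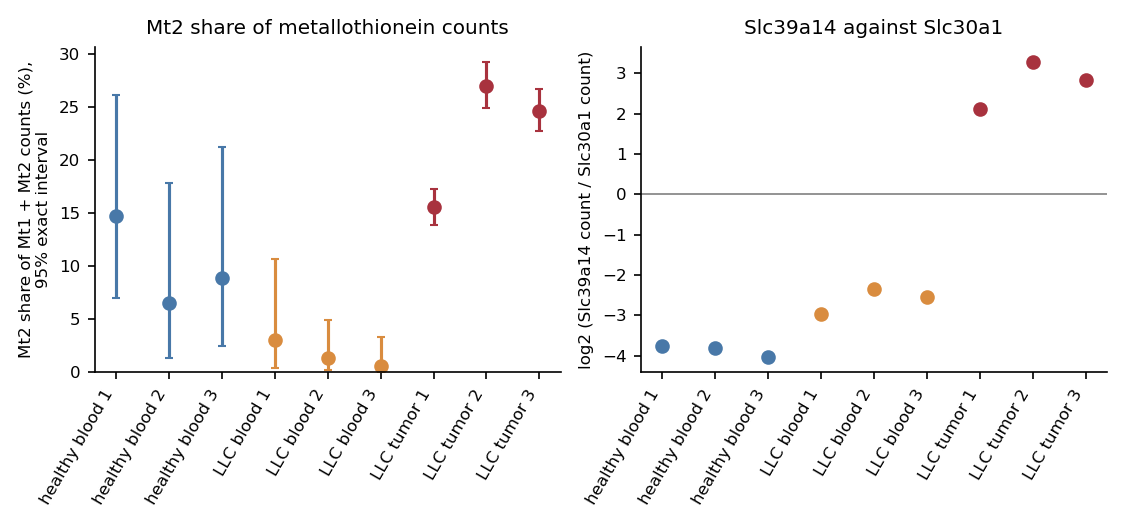
Left, the share of Mt2 in the summed Mt1 and Mt2 counts of each library in percent, with bars for the 95% exact interval of counting error; right, the log2 ratio of Slc39a14 to Slc30a1 counts in each library. The share lies below 3.1% in the LLC blood libraries and above 15% in the LLC tumor libraries, and the ratio is at -2.35 or below in all 6 blood libraries and at 2.11 or above in all 3 tumor libraries.

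Levels of Mt1 and Mt2 were both higher in every LLC tumor library than in every blood library, for Mt2 as a description only. Their promoters are printed for this reason, and because the metal response element, where MTF1 binds, is their best known shared feature. The element's core was searched as TGCACNC or TGCGCNC on both strands of 300-base RefSeq promoter entries (GRCm38.p6), which run from 250 bases before to 50 bases after a start site. Capitals mark the matches, and a match on the other strand reads in reverse complement. The lines give the plus strand, first the 250 bases before the start and then a stretch of 30 bases after it that holds the matches there.
Mt1, chr8:94178839-94179088, plus strand: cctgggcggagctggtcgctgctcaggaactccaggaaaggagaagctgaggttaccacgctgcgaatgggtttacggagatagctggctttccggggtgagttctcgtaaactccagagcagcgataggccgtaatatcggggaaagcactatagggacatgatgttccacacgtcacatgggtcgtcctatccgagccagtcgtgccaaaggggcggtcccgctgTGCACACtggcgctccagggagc
Mt1 after the start, chr8:94179089-94179118, plus strand: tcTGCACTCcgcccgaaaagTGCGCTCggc
Mt2, chr8:94172368-94172617, plus strand: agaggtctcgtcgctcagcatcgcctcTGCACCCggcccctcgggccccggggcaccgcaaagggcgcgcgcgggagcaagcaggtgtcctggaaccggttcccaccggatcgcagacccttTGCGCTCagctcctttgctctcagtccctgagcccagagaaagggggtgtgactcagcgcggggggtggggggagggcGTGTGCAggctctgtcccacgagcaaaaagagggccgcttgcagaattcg
Mt2 after the start, chr8:94172618-94172647, plus strand: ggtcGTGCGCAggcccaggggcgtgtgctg

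The Mt1 entry held 3 matches, at 23 bases before and at 3 and 21 bases after the start site that RefSeq gives this entry, a site inside the annotated span of the gene. The Mt2 entry held 4 matches, at 223, 128 and 50 bases before and 5 bases after its start. Among all 32851 promoter entries, 25.7% held at least 1 match, 1.97% at least 3 and 0.517% at least 4. Before and after refer to the start of the entry, and where transcription starts in these cells was not examined. A match is a description of these letters and shows no binding in these cells.

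Mt3 and Mt4, the other mouse metallothioneins, which are known from brain and from squamous epithelium, were close to absent. Their highest count in any library was 2 and 1, and neither was tested.

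Mtf1 (ENSMUSG00000028890, chr4:124802549-124849800 of GRCm38) encodes the zinc sensor that switches on the metallothionein genes. Its level was 31.9, 33.6 and 29.9 CPM in healthy blood, 35.9, 43.0 and 48.5 CPM in LLC blood, and 20.8, 29.9 and 25.9 CPM in LLC tumor. LLC blood was above the other groups in every library, and the LLC tumor and healthy blood libraries overlapped. The means were 31.8 ± 1.86, 42.5 ± 6.31 and 25.5 ± 4.57 CPM (SD, n = 3 libraries each). Mtf1 was lower in LLC tumor than in LLC blood by a log2 fold change of -0.55 ± 0.12 (SE), with an adjusted p of 0.00291, so it fell in the comparison in which the metallothioneins rose. Against healthy blood, LLC tumor differed by -0.16 ± 0.12, with an adjusted p of 0.267. The rise in LLC blood was 0.39 ± 0.12 on the log2 scale with an adjusted p of 0.0387, close to the threshold. It no longer passed in 10 of 17 other analyses, among them those without healthy blood 1, 2 or 3 (adjusted p 0.0980, 0.104 and 0.135), without LLC blood 2 or 3 (0.112 and 0.147) and without LLC tumor 3 (0.0548). Mtf1 overlaps 1110065P20Rik in the annotation, and its counts were not whole numbers in any library; how reads of the overlap were divided is not given in the sources used here. The RefSeq promoter entry of Mtf1 held no match to the metal response element core.

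Slc30a1 (ENSMUSG00000037434, chr1:191906697-191913248 of GRCm38) encodes ZnT1, the exporter that moves zinc out across the plasma membrane and a known target of MTF1. Its level was 64.2, 56.2 and 61.8 CPM in healthy blood, 42.2, 51.7 and 47.2 CPM in LLC blood, and 31.4, 17.5 and 22.7 CPM in LLC tumor. The 3 groups did not overlap and stood in the reverse order of Mt1. The means were 60.7 ± 4.08, 47.0 ± 4.72 and 23.9 ± 7.03 CPM (SD, n = 3 libraries each). Slc30a1 fell from LLC blood to LLC tumor by 0.75 on the log2 scale (SE 0.24), with an adjusted p of 0.0222. It fell from healthy blood to LLC tumor by 1.14 on the log2 scale (SE 0.24), with an adjusted p of 0.00228. Between the blood groups the log2 fold change was -0.39 ± 0.23 and did not pass (adjusted p 0.253), although every LLC blood library was below every healthy one.

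Slc30a1 changed sides of the threshold with single libraries between LLC blood and LLC tumor and between the blood groups. Its fall from healthy blood to LLC tumor was called in all 17 other analyses. The difference from LLC blood to LLC tumor did not pass without LLC blood 2 (adjusted p 0.0505), LLC blood 3 (0.0511), LLC tumor 2 (0.0507) or LLC tumor 3 (0.0747), and was -1.10 on the log2 scale, past the threshold, without LLC tumor 1. Without LLC tumor 1 the blood difference was also called, at -0.45 on the log2 scale with an adjusted p of 0.00914. LLC tumor 1 was the tumor library with the highest Slc30a1 level. Slc30a1 overlaps the long noncoding gene 1700034H15Rik, which held 2.13 to 17.997 counts a library, and counts of Slc30a1 were not whole numbers in any library.

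The Slc30a1 promoter is printed beside the metallothionein promoters because this gene, with the same kind of motif, was lower in LLC tumor where Mt1 and Mt2 were higher. Its entry held 2 matches to the element core, at 43 bases before and 31 bases after the start, and the line after the start is the stretch around the second match. As for Mt1, the start of the entry lies inside the annotated span of the gene, and bases upstream or downstream of either entry were not searched. Of all entries, 7.11% held at least 2.
Slc30a1, chr1:191906531-191906780, plus strand: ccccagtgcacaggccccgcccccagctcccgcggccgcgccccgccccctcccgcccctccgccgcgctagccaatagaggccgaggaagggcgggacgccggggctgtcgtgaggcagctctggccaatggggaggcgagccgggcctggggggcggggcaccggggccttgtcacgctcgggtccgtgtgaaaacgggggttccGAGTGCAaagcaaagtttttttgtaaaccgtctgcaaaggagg
Slc30a1 after the start, chr1:191906800-191906829, plus strand: gcctccgggccGAGCGCAgtcgccgcggac

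Slc39a14 (ENSMUSG00000022094, chr14:70303467-70351452 of GRCm38) encodes ZIP14, an importer of zinc and of iron not bound to transferrin. Its level was 4.72, 3.99 and 3.74 CPM in healthy blood, 5.36, 10.2 and 8.02 CPM in LLC blood, and 135.2, 170.5 and 162.3 CPM in LLC tumor. The 3 groups did not overlap, though the highest healthy blood library and LLC blood 1 lay close together. The means were 4.15 ± 0.507, 7.85 ± 2.41 and 156.0 ± 18.5 CPM (SD, n = 3 libraries each). Slc39a14 rose from healthy blood to LLC blood by 0.91 ± 0.20 on the log2 scale (SE), with an adjusted p of 0.00990. From LLC blood to LLC tumor it rose by 4.49 ± 0.18 on the log2 scale, a 22.4-fold change with an adjusted p of 2.08e-07. From healthy blood to LLC tumor it rose by 5.40 ± 0.20 on the log2 scale, with an adjusted p of 1.23e-07. Its order of groups was that of Mt1, and the neighbouring groups differed beyond the spread of their libraries. Without LLC blood 1 the rise in blood was 1.11 on the log2 scale, with an adjusted p of 0.00103.

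Slc39a8 (ENSMUSG00000053897, chr3:135816882-135888572 of GRCm38) encodes ZIP8, the closest relative of ZIP14 and an importer of zinc and manganese. It stayed near the limit of what these libraries could count. Its level was 1.07, 0.983 and 1.10 CPM in healthy blood, 1.43, 1.94 and 1.497 CPM in LLC blood, and 0.632, 1.42 and 1.56 CPM in LLC tumor, from 7 to 31 counts a library. Every LLC blood library was above every healthy one, and the LLC tumor libraries overlapped both other groups. None of the differences passed. The log2 fold changes were 0.59 ± 0.32 for LLC blood against healthy blood (SE, adjusted p 0.219), -0.26 ± 0.33 for LLC tumor against LLC blood (adjusted p 0.516) and 0.34 ± 0.34 for LLC tumor against healthy blood (adjusted p 0.401). The pooled ratio of LLC tumor to LLC blood was 0.745 with a 95% exact counting interval of 0.496 to 1.11. The pooled ratio of Slc39a14 in the same comparison was far higher, at 19.3 (17.4 to 21.5). These intervals leave out the spread between libraries. Without LLC tumor 1, the lowest library, the log2 fold change of Slc39a8 against LLC blood was 0.0028.

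**Figure D3:**
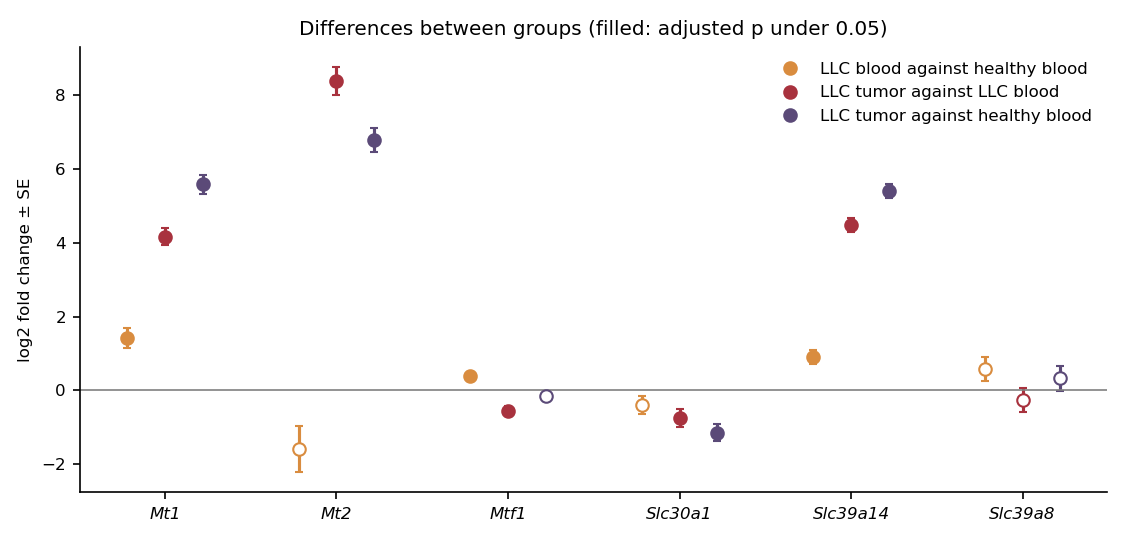
Points are log2 fold changes of the 6 genes in the 3 comparisons with their SE, and filled points have an adjusted p under 0.05 (for Mt2 in LLC tumor a description, since the tumor libraries alone brought it past the filter). Mt1, Mt2 and Slc39a14 stand above 4 on the log2 scale in both comparisons of LLC tumor, while Mtf1, Slc30a1 and Slc39a8 lie between -1.14 and 0.59 in all comparisons.

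For this importer and exporter among the 6 genes, the log2 ratio of Slc39a14 to Slc30a1 counts inside each library needs no scaling between libraries. It is not corrected for gene length, so only its change between libraries can be read, and it stands for this pair and not for zinc import and export as a whole. The ratio was -3.77, -3.82 and -4.05 in healthy blood, -2.98, -2.35 and -2.56 in the LLC blood libraries, and 2.11, 3.29 and 2.84 in those of LLC tumor. The 3 groups did not overlap, with healthy blood lowest and LLC tumor highest. The means were -3.88 ± 0.15, -2.63 ± 0.32 and 2.74 ± 0.60 (SD, n = 3 libraries each). LLC tumor 1 had the smallest ratio of the tumor libraries, with the highest Slc30a1 and the lowest Slc39a14 level among them.

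Of the 9 other SLC30 genes, 5 could be tested, and all 5 were called between LLC blood and LLC tumor, where 61.3% of all tested genes were called. Slc30a4 (ZnT4, which moves zinc into vesicles and lysosomes) and Slc30a9 (a carrier of mitochondria) were higher in LLC tumor, and Slc30a5, Slc30a6 and Slc30a7, which supply the secretory pathway, were lower. Slc30a4 was at 1.64, 1.60 and 1.47 CPM in healthy blood, 1.05, 1.38 and 1.30 CPM in LLC blood, and 22.3, 101.6 and 79.4 CPM in LLC tumor. All tumor libraries stood above all blood libraries, and LLC tumor 1 was well below the other tumor libraries. The log2 fold change from LLC blood to LLC tumor was 5.87 ± 0.49 (SE), with an adjusted p of 8.50e-06, a larger value than those of Mt1 and Slc39a14 in the same comparison. Slc30a9 rose by 1.10 ± 0.09 on the log2 scale, with an adjusted p of 9.61e-06. Slc30a5, Slc30a6 and Slc30a7 fell by 0.56, 0.41 and 0.36 on the log2 scale (SE 0.10, 0.11 and 0.06), with adjusted p-values of 0.00114, 0.0101 and 6.57e-04. The median of the 5 genes was -0.36, against -0.034 for all tested genes.

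In LLC blood against healthy blood, Slc30a7 was the only other SLC30 gene called, with a log2 fold change of 0.39 ± 0.06 (SE) and an adjusted p of 0.00244. In LLC tumor against healthy blood, Slc30a4 and Slc30a9 were called higher and none lower, where 33.5% of all tested genes were called higher and 33.0% lower. That none was called lower depended on the analysis, and Slc30a5 and Slc30a6 missed the threshold narrowly (adjusted p 0.0552 and 0.0603). With library totals alone, upper quartiles or the reads recovered from the CPM table, 2 of the 5 were called lower there. With limma-voom, only the 6 libraries compared or the replicate block it was 1 of the 5. With no filter it was 1 of 8, and with DESeq2 again none.

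Of the 12 SLC39 genes other than Slc39a14 and Slc39a8, 9 could be tested, and against LLC blood 3 were called higher and 3 lower in LLC tumor. Over all tested genes 29.6% were called higher and 31.7% lower, so this share is near the background. The surface importers Slc39a1, Slc39a6 and Slc39a10 rose by 0.40 ± 0.11, 0.76 ± 0.09 and 0.70 ± 0.18 on the log2 scale (SE), with adjusted p-values of 0.00972, 8.32e-05 and 0.00766. Slc39a3, Slc39a9 and Slc39a11 fell by 0.71, 0.36 and 0.63 on the log2 scale (SE 0.09, 0.07 and 0.10), with adjusted p-values of 1.41e-04, 0.00188 and 4.66e-04. None of these 6 changes reached 1 on the log2 scale, whereas Slc39a14 stood at 4.49. Slc39a10 was at 39.7 to 43.3 CPM in LLC blood and at 39.0, 86.1 and 56.8 CPM in LLC tumor 1, 2 and 3, so its groups overlapped. The median of the 9 genes was 0.02, against -0.034 for all tested genes. With library totals alone as the scaling, which moved the median of all genes to -0.23, their median was -0.17, and 1 was called higher and 4 lower, with Slc39a1 and Slc39a10 no longer past the threshold.

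In LLC blood, Slc39a9 was the only other SLC39 gene called, at 0.24 ± 0.07 on the log2 scale (SE) with an adjusted p of 0.0382, and it did not pass in 9 of 17 other analyses, among them those without any 1 of the healthy libraries, LLC blood 2, LLC blood 3 or LLC tumor 3 (adjusted p 0.0556 to 0.176). In LLC tumor against healthy blood, Slc39a1, Slc39a6 and Slc39a10 were called higher and Slc39a2, Slc39a3 and Slc39a11 lower. Over all tested genes, 33.5% were called higher and 33.0% lower there. Slc39a2 lay at the limit of the filter on low counts, was highest in the healthy blood libraries that helped it pass, and had a value in 10 of 17 other analyses, so its call is a description. It was counted 6 to 13 times in a blood library and 3 times in each LLC tumor library. Its pooled ratio of LLC tumor to healthy blood was 0.353, with a 95% exact counting interval of 0.149 to 0.749, and its call did not pass without LLC tumor 2 or 3 (adjusted p 0.0551 and 0.0571).

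**Figure D4:**
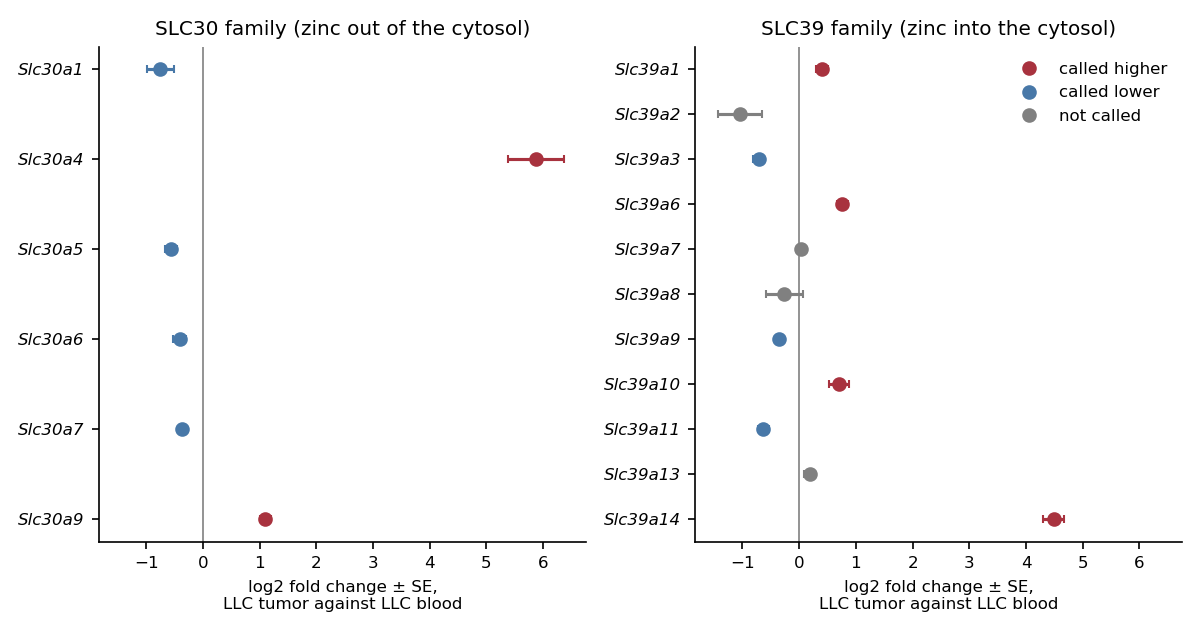
Points are log2 fold changes of LLC tumor against LLC blood with their SE for the tested genes of the SLC30 family (left, 6 genes) and the SLC39 family (right, 11 genes), colored by call. Slc30a4 at 5.87 and Slc39a14 at 4.49 stand far from the rest of their families, whose values run from -1.05 to 1.10.

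Other factors known to act on metallothionein promoters were listed beside Mtf1: Usf1 and Usf2, the glucocorticoid receptor Nr3c1, the interleukin-6 effector Stat3, the oxidative stress factor Nfe2l2 (NRF2) and Sp1. All 6 were tested, and against LLC blood 1 was called higher and 3 lower in LLC tumor, with a median of -0.26 against -0.034 for all tested genes; the number called is near the 61.3% over all genes. Usf1 was the largest of these changes. It was at 266.0, 243.7 and 216.5 CPM in healthy blood, 225.7, 245.9 and 232.0 CPM in LLC blood, and 56.2, 58.2 and 65.3 CPM in LLC tumor. The blood groups overlapped and every tumor library was far below them, with a log2 fold change of -1.77 ± 0.10 (SE) against LLC blood and an adjusted p of 8.98e-07. Stat3 and Nfe2l2 fell by 0.41 and 0.34 on the log2 scale (SE 0.09 and 0.11), with adjusted p-values of 0.00301 and 0.0207, and Nr3c1 rose by 0.30 ± 0.10, with an adjusted p of 0.0306. With library totals alone as the scaling, none of the 6 was called higher and 5 were called lower.

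In LLC blood, Stat3 was the only one of these factors called, at 0.34 ± 0.09 on the log2 scale (SE) with an adjusted p of 0.0232, a direction it shared with Mtf1. In LLC tumor against healthy blood, Nr3c1 was called higher and Usf1, Usf2 and Nfe2l2 lower, with a median of -0.24. Over all tested genes, 33.5% were called higher and 33.0% lower there. The blood call of Stat3 did not pass without any 1 of the healthy libraries, LLC blood 2 or LLC blood 3 (adjusted p 0.0587 to 0.104). Against LLC blood, the call of Nr3c1 did not pass when healthy blood 1, healthy blood 3, LLC blood 1 or LLC blood 2 was left out (0.0547 to 0.123), and that of Nfe2l2 did not pass without LLC blood 3, LLC tumor 2 or LLC tumor 3 (0.0660 to 0.0807). The call of Nr3c1 against healthy blood did not pass without healthy blood 3 (0.0616).

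Among 4 other genes tied to MTF1, Ndrg1 and Csrp1 were called higher and Gclc lower in LLC tumor than in LLC blood, with a median of 0.51, where 29.6% of all tested genes were called higher and 31.7% lower. Ndrg1, a stress gene also induced by low oxygen, was at 125.9 to 143.4 CPM in healthy blood, 160.0 to 187.9 CPM in LLC blood and 586.0 to 707.6 CPM in LLC tumor. It rose by 2.09 ± 0.15 on the log2 scale (SE) from LLC blood to LLC tumor, with an adjusted p of 3.88e-06. Csrp1, a LIM domain protein, rose by 0.78 ± 0.19, with an adjusted p of 0.00513, and Gclc, the catalytic subunit of the first enzyme of glutathione synthesis, fell by 0.35 (SE 0.12), with an adjusted p of 0.0251, a call that did not pass without healthy blood 2, LLC blood 3, LLC tumor 1 or LLC tumor 3 (0.0510 to 0.0939). Selenow, a small selenoprotein listed under its older symbol Sepw1, was the only gene of the list called in blood, where its log2 fold change was -1.05 ± 0.21 with an adjusted p of 0.00738. Against healthy blood, LLC tumor had Ndrg1 and Csrp1 called higher and Selenow lower, with a median of 0.39. Over all tested genes, 33.5% were called higher and 33.0% lower there.

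Metallothioneins also bind copper, and 8 of 9 copper-handling genes were tested. Atp7a, the copper pump of the secretory pathway, was higher in LLC blood (0.62 ± 0.12 on the log2 scale, SE, adjusted p 0.00675) and higher again in LLC tumor (0.43 ± 0.12, adjusted p 0.0129), although the second step did not pass without LLC blood 1 (0.0573). Cox17, the copper chaperone of mitochondria, rose by 1.16 ± 0.14 on the log2 scale from LLC blood to LLC tumor, with an adjusted p of 8.07e-05. Slc31a1 (CTR1, the copper importer) was also called higher there and Sod1 (copper-zinc superoxide dismutase) and Slc31a2 lower, which made 3 higher and 2 lower of 8, near the 61.3% called over all genes. The call of Slc31a1 did not pass without healthy blood 1 or 3 or any 1 of the LLC blood libraries (adjusted p 0.0513 to 0.118), and that of Slc31a2 did not pass without healthy blood 2, LLC blood 2 or 3, or LLC tumor 2 or 3 (0.0545 to 0.114). In LLC blood, Atp7a was called higher and Ccs, the copper chaperone of superoxide dismutase, lower, the latter not without healthy blood 1 or 3 or any 1 of the LLC blood libraries (adjusted p 0.0649 to 0.129). In LLC tumor against healthy blood 3 were called higher and 3 lower, where 33.5% of all tested genes were called higher and 33.0% lower. The medians of the list were -0.24, 0.19 and 0.15 for LLC blood against healthy blood, LLC tumor against LLC blood and LLC tumor against healthy blood, and with library totals alone the latter pair became -0.028 and -0.036.

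For each of the 6 genes, the 3 genes with the most similar course over the 9 libraries were found as those with the smallest root mean square difference of log2 CPM, each centred on its own mean, among 12336 other genes. The nearest to Mt1 were Uck2 (0.155), Gpnmb (0.268) and Slc39a14 (0.289), so an importer of zinc was among its 3 nearest genes. Uck2, a uridine-cytidine kinase, had group means of 5.53, 14.9 and 205.1 CPM, and Gpnmb, a glycoprotein of macrophage lysosomes, had 3.09, 11.4 and 136.5 CPM. The nearest to Slc39a14 were the lysosomal protease gene Ctsl (0.200), the vitamin D receptor gene Vdr (0.256) and again Uck2 (0.277). The nearest to Mt2 were the scavenger receptor gene Stab1 (0.212), Fblim1 (0.359) and Sphk1 (0.366). Stab1 had group means of 7.05 ± 3.98, 3.35 ± 0.908 and 392.5 ± 54.7 CPM (SD, n = 3 libraries each). Fblim1 had means of 0.286, 0.158 and 28.9 CPM, and Sphk1 of 0.112, 0.0319 and 21.05 CPM. Like Mt2, these 2 genes were near the floor in blood, where the prior count of 2 weighs on log2 values. Their closeness to Mt2 among the blood libraries therefore says little.

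The courses of the other 3 genes were shared more closely. The nearest to Slc30a1 were Zfp472 (0.0696) and the membrane protein genes Ms4a6b (0.112) and Ms4a6c (0.122), with Ms4a6b at means of 553.5, 438.6 and 209.1 CPM. The nearest to Mtf1 were Zfp638 (0.0589), Pikfyve (0.0605) and Zfp935 (0.0658), and to Slc39a8 Lrrcc1 (0.0930), Emilin1 (0.0972) and Yeats2 (0.116). These distances describe 9 libraries in 3 groups and carry no test, and a gene with little change has small distances to many others.

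Sums of markers of other cells also differed between LLC tumor and blood, some higher and some lower. The fibroblast sum was lowest in LLC tumor 1, which also had the lowest Mt2, Slc39a14 and Slc30a4 levels of the tumor libraries, but the highest Mt1 and Slc30a1 levels. In LLC blood 1 the fibroblast sum was 408.9 CPM, below the 936.1 to 3921 CPM of the tumor libraries. Single markers differed in direction. Col1a1 was at 212.2 CPM in LLC blood 1 and at 13.5, 109.7 and 129.3 CPM in the tumor libraries. Col3a1 was at 57.2 CPM in LLC blood 1 and at 713.3, 2801 and 3099 CPM in LLC tumor. The part of other cells in the tumor values was not tested.

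**Figure D5:**
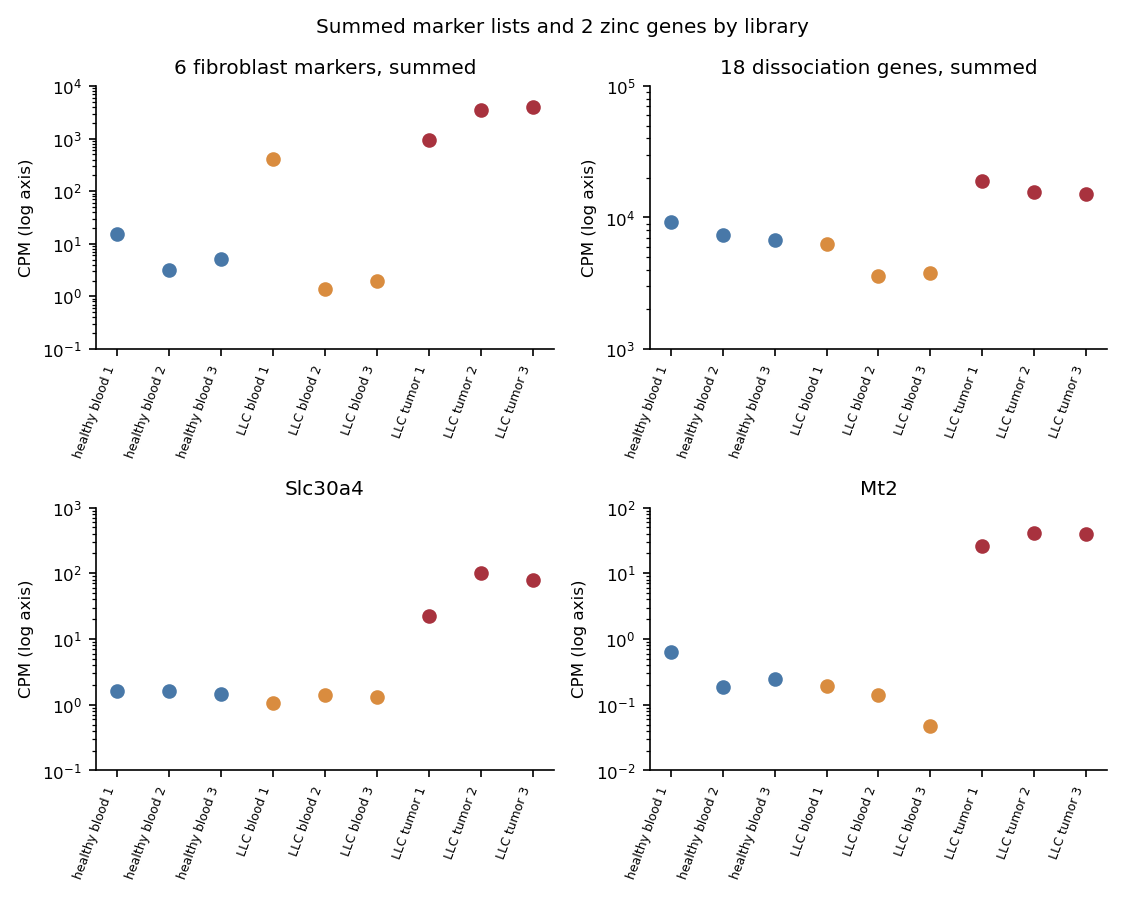
Each point is 1 library on a log axis of CPM: the sums of 6 fibroblast markers and of 18 genes that respond to tissue dissociation above, Slc30a4 and Mt2 below. Among the blood libraries, LLC blood 1 stands out in the fibroblast sum, at 408.9 CPM. LLC tumor 1 is the lowest tumor library in 3 of the panels and the highest in the dissociation sum.

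Genes that respond to tissue dissociation were also higher in LLC tumor. The sum of 18 such genes, which include Fos, Jun and heat shock genes, was 6767 to 9283 CPM in healthy blood, 3570 to 6264 CPM in LLC blood and 15190 to 18830 CPM in LLC tumor. Of these 18, 17 were called higher in LLC tumor than in LLC blood, where 29.6% of all tested genes were called higher. Between the blood groups, 5 of the 18 were called lower and 1 higher in LLC blood. Over all tested genes, 9.61% were called lower and 14.0% higher there. The part of dissociation in the tumor values was not tested. Sums for endothelial cells (51.0 to 69.8 CPM against 11.4 to 13.9 in LLC blood), for epithelial or carcinoma cells (63.4 to 102.0 against 3.94 to 6.27) and for platelets (145.3 to 226.4 against 18.1 to 21.04) were higher in LLC tumor. The platelet markers did not move together: of 4 tested, 2 were called higher and 1 lower than in LLC blood. Nor did the epithelial or carcinoma markers, of which 4 were tested, 3 called higher and 1 lower. Of all tested genes, 29.6% were called higher and 31.7% lower in that comparison. Erythroid markers were at 168.5 to 920.1 CPM in LLC blood and 1.08 to 3.46 CPM in LLC tumor. In LLC blood, sums for T cells (3.25 to 4.64 CPM against 25.2 to 103.1 in healthy blood), B cells (10.4 to 14.5 against 17.3 to 166.5) and NK cells (20.6 to 40.0 against 158.9 to 398.3) were lower than in healthy blood. Those of neutrophils overlapped (302.4 to 765.1 against 176.6 to 350.5), and 4 of the 9 neutrophil markers tested were called higher and none lower in LLC blood. Over all tested genes, 14.0% were called higher and 9.61% lower in LLC blood. The gate excludes MHC class II protein. The sum of the MHC class II genes H2-Aa, H2-Ab1 and H2-Eb1 with Cd74 was lower in LLC blood (409.5 to 634.8 against 1041 to 1659). Most of it was Cd74, at 313.0 to 452.9 CPM in LLC blood and 764.0 to 1073 CPM in healthy blood. The part of these cells in the blood values of the zinc genes was not tested.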

How the data were processed

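RNA was measured in 9 sequencing libraries of sorted mouse monocytes, 3 in each of 3 groups. The authors deposited a table of estimated counts (expected counts per gene, not normalized), of which 8.56% to 9.73% of the values per library were not whole, and a table of CPM values for 10693 genes. Per the submitters' processing notes, Trim Galore 0.6.7, cutadapt 3.4, STAR 2.6.1d, Salmon 1.9.0, edgeR and the build mm10 (GRCm38) were used; their roles are not given in the sources used here. The heads of blood columns hold the letters BM; the titles, which name blood, were followed.

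Counts were rounded and tested with edgeR 4.0.16 in R 4.3.3: TMM normalization, the filterByExpr filter (12337 of 18544 genes with a count), a quasi-likelihood fit of all 9 libraries with the group as the only term, and Benjamini-Hochberg adjustment within each comparison, with a threshold of 0.05. An SE is the size of the log2 fold change divided by the square root of its F value. Reported CPM are counts over the column total. Whole reads recovered from the deposited CPM table were whole for 100% of the values (tolerance 0.01 reads) and equalled the rounded counts. The fit was also run on simulated data, whose outcome is not given here. All 6 genes are named in every comparison; of the lists of other metallothioneins, SLC30, SLC39, promoter regulators, MTF1-tied and copper genes, a gene is named where it was called in at least 1 comparison; nearest genes were ranked with a prior count of 2. The 6 genes and the lists were chosen with earlier results of these data known. Gene positions and promoters come from RefSeq tables of GRCm38.p6; promoter entries were found for Mt1, Mt2, Mtf1, Slc30a1 and Slc39a8. The alternatives were DESeq2 1.42.0, upper-quartile factors, library totals alone, no filter, limma-voom (limma 3.58.1), only the 6 libraries compared, a replicate block, the recovered reads, and leaving out each library.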

Additional observations from a re-analysis of the deposited data

How the results depend on the processing

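Each result was recomputed under 17 alternatives. The results for Mt1, Mt2 and Slc39a14 in every comparison, for Mtf1, Slc30a1 and Slc39a8 in LLC tumor against healthy blood, and for Mtf1 in LLC tumor against LLC blood kept their direction and side of the threshold in all that could be fitted; with only the 6 blood libraries, Mt2 did not pass the filter and got no value. For Mt2 in LLC tumor this is a description, since the tumor libraries alone brought it past the filter. The recovered reads equalled the rounded counts, so that alternative differed only in the genes included. Between the blood groups 2917 genes were called, against 5884 with limma-voom and 4889 with only the 6 libraries compared; leaving out single libraries gave between 1494 genes (LLC blood 2 left out) and 5064 (LLC tumor 1 left out), and 1873 and 1697 without healthy blood 2 and 3 and 1577 without LLC blood 3. Of the 6 genes, 5 were called in blood with limma-voom, against 3, and 2 to 4 when a library was left out.

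The rise of Mtf1 in LLC blood did not pass with upper-quartile factors (0.34 on the log2 scale, adjusted p 0.0699), library totals (0.42, 0.0726), no filter (0.40, 0.0520) or the replicate block (0.39, 0.0511), and lay between 0.28 and 0.51 when a library was left out. The blood difference of Slc30a1 passed with limma-voom (-0.33, adjusted p 0.0178) and with only the 6 libraries compared (-0.40, 0.00553), and lay between -0.51 and -0.31 with a library left out. That of Slc39a8 passed with limma-voom (0.63, 0.0484). From LLC blood to LLC tumor, Slc30a1 did not pass with only the 6 libraries compared (-0.72, 0.0527) and lay between -1.10 and -0.51 with a library left out; Slc39a8 lay between -0.46 and 0.0028, the latter without LLC tumor 1 (adjusted p 0.994). The cause of these changes was not tested.

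Same-numbered libraries did not deviate together in every pair. Correlations were 0.30, 0.18 and 0.07 between the blood groups, and -0.08, 0.12 and -0.14 between LLC blood and LLC tumor. Between healthy blood and LLC tumor they were 0.08, 0.05 and 0.09. Of 6 libraries, 4 correlated best with their own number between the blood groups and 2 between LLC blood and LLC tumor. Between healthy blood and LLC tumor, 5 of 6 did so. The labels name no pairs, and the numbers were not taken as pairs. With the replicate block, 2788, 7455 and 8092 genes were called in the 3 comparisons, against 2917, 7566 and 8208 without it. Of called genes in blood, 59.4% were higher with TMM and 46.3% with upper quartiles; of those from LLC blood to LLC tumor, 48.3% were higher with TMM and 36.3% with library totals, which moved the median of all genes to -0.23. Counts of 1 to 31 a library limit Mt2 in blood and Slc39a8.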
